A study of Caenorhabditis elegans with 24 samples.

Results

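The comparison described here set animals carrying both mutant alleles, 40Q; unc-1(vlt10); nhr-1(vlt16), called double mutants from here on, against 40Q animals that carry neither. It used 12 libraries of the 24 in the series, 6 biological replicates of double mutants and 6 of 40Q, chosen by their labels. The question was which transcripts still differ from 40Q when nhr-1 is lost together with unc-1. All animals carried the integrated transgene rmIs133 on chromosome X, in which the muscle promoter of unc-54 drives 40 glutamine repeats fused to the yellow fluorescent protein, so 40Q shares the aggregating protein with the mutants and is not a wild type. The allele vlt10 is a nonsense mutation in unc-1 from a chemical mutagenesis screen, and vlt16 is a nonsense mutation placed in nhr-1 by CRISPR. Each genotype was a single strain, so differences carried by a strain beside the named alleles cannot be told apart from the effects of those alleles. Each library came from pooled young adults grown at 20°C, and RNA of whole animals was measured, so fewer cells of a type and less RNA per cell cannot be told apart. The 6 libraries of unc-1(vlt10) and the 6 of nhr-1(vlt16) single mutants are used only to place the double mutants.

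UNC-1 is a stomatin, a membrane protein that regulates gap junctions in neurons and muscle, and animals without it are uncoordinated. NHR-1 belongs to the nuclear hormone receptors, transcription factors that in C. elegans often answer to steroids, fatty acids or other small lipids. In worms, steroid hormones are made from dietary cholesterol by enzymes such as DAF-36 and DAF-9, and they tie the nervous system to fat metabolism in the intestine. The enzymes FAT-5, FAT-6 and FAT-7 are desaturases that turn saturated into monounsaturated fatty acids, the elongases of the elo class lengthen them, and the makeup of membrane lipids bears on how cells keep proteins folded.

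The double mutants were sequenced more deeply, with 26646628 to 30467364 reads counted on genes per library, against 19599153 to 23481210 in 40Q, a ratio of 1.26 between the medians. Levels are given as CPM, the reads of a gene scaled to a common library size, after TMM normalization, which divides out this depth and whose factors lay between 0.976 and 1.042. Of the 46778 genes in the count table, 24188 had a count in these libraries and 14627 reached 10 counts in at least 6 of the 12 and were tested. On log2 CPM, the first principal component held 43.9% of the variance and separated the genotypes, at -17.4 to -11.6 in double mutants and 9.21 to 20.5 in 40Q. No library stood apart from both groups, and no pair of replicates was as alike as counting noise alone would make it. Markers of body wall muscle, pharynx, intestine, hypodermis, neurons, germline, oocytes and sperm were found in every library, whereas the male neuron genes pkd-2, lov-1 and cwp-1 stayed at or below 0.186 CPM. The ASJ neuron genes trx-1 and ssu-1, the sulfotransferase, reached at most 0.394 CPM and were not tested.

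Both targeted genes were lower in the libraries labelled as mutant. The mRNA of unc-1 (WBGene00006741, chromosome X, 1057487 to 1062453) lay at 0.807, 0.894 and 1.02 CPM (lowest, median and highest of 6 libraries) in double mutants, against 6.49, 8.11 and 9.45 CPM in 40Q. These ranges were far apart, with a log2 fold change, double mutants over 40Q, of -3.16 (standard error 0.129, adjusted p = 1.62e-12; throughout, the test is the quasi-likelihood one of edgeR with Benjamini-Hochberg adjustment). The mRNA of nhr-1 (WBGene00003600, chromosome X, 17514063 to 17528197) lay at 12.34, 14.1 and 16.7 CPM in double mutants, against 25.2, 28.8 and 29.7 CPM in 40Q. It was lower without overlap, by -0.97 on the log2 scale (standard error 0.0737, adjusted p = 1.25e-08), just under the 2-fold threshold.

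A gene counted as called if it differed more than 2-fold with an adjusted p below 0.05. Of the genes tested, 270 were called (1.85%), of which 166 were higher in double mutants (1.13%) and the others lower (0.711%). For 190 of the called genes the 6 and 6 libraries did not overlap, beside 1732 of all 14627 genes tested. Most differences were smaller than 2-fold: 4261 genes (29.1%) had an adjusted p below 0.05, of which 2022 were higher (13.8%) and 2239 lower (15.3%), and the median size of their log2 fold changes was 0.309. Counts for lists of genes below are to be read beside these shares of all genes tested. The excess of higher over lower calls lay among weakly expressed genes. Below a mean of 1 CPM, 79 genes were called higher and 26 lower of 2056 tested, whereas 87 were called higher and 78 lower among the 12571 genes at 1 CPM or more. The filter used raw counts, which are larger in the deeper double mutant libraries. Through double mutant libraries alone 27 of the genes tested passed it, and 4 through 40Q libraries alone. The part of the filter in the excess of higher calls was not tested. Above 100 CPM, 1 of 2340 genes was called higher, the collagen col-95, and 1 lower. By annotation 227 of the called genes were protein-coding and 35 were pseudogenes.

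**Figure D1:**
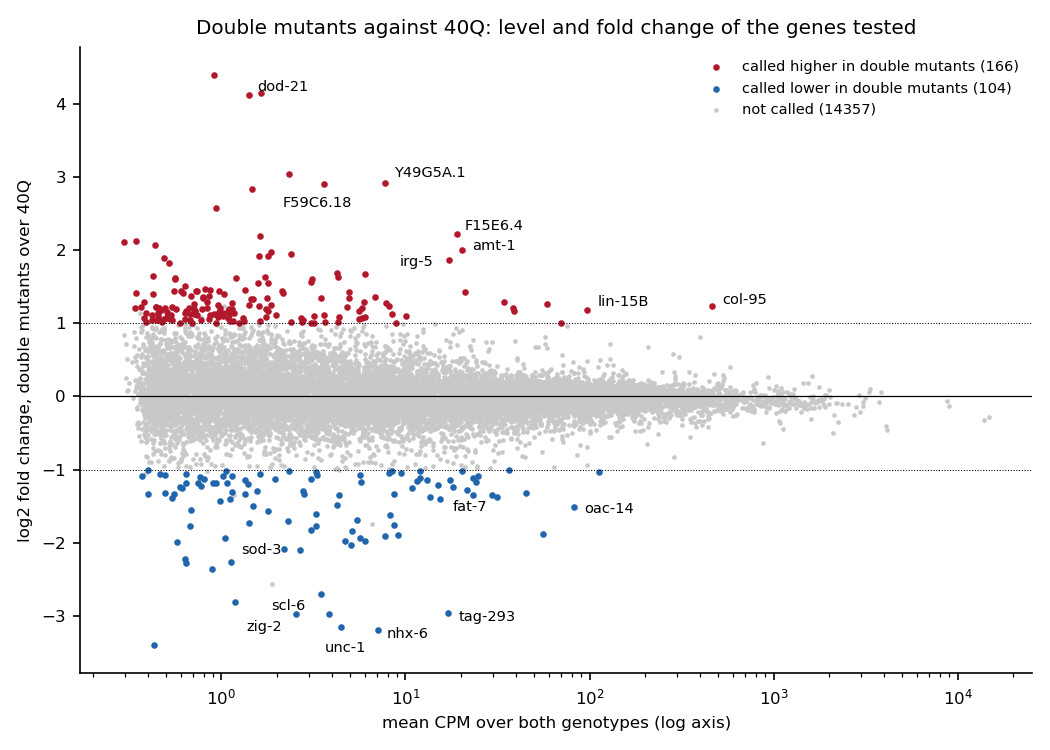
Each point is 1 of the genes tested, with its mean CPM over both genotypes on the horizontal log axis and its log2 fold change, double mutants over 40Q, on the vertical axis; dotted lines mark 2-fold, and F56A4.3, without a read in double mutants, is counted in the legend but not drawn. Called genes sit mostly below 100 CPM, and the 166 higher calls crowd at low levels, while unc-1, nhx-6, scl-6 and tag-293 lie near a log2 fold change of -3.

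The largest increases among well-detected genes with no overlap between the libraries included genes of transport, infection response and fat breakdown. Y49G5A.1 (chromosome V) had 13.1, 13.4 and 15.7 CPM in double mutants, against 1.45, 1.88 and 2.04 CPM in 40Q, a difference of 2.92 on the log2 scale (standard error 0.0923, adjusted p = 5.56e-14). F59C6.18 (chromosome I) had 5.53, 6.45 and 7.43 CPM in double mutants, against 0.437, 0.865 and 1.40 CPM in 40Q, with a log2 fold change of 2.91 (standard error 0.173). F15E6.4, a gene that the study took from work on ssu-1 mutants, lay at 26.6, 29.7 and 41.8 CPM in double mutants and 5.94, 6.71 and 7.71 CPM in 40Q. It rose by 2.22 on the log2 scale (standard error 0.104), the only call among the 16 tested members of that list, of which 3 were higher and 1 lower at an adjusted p below 0.05. The ammonium transporter gene amt-1 averaged 32.5 ± 2.70 CPM in double mutants, with libraries at 28.9 to 36.3 CPM, against 8.08 ± 0.725 CPM and 6.99 to 8.75 CPM in 40Q (SD, n = 6 each; log2 2.01, standard error 0.0703, adjusted p = 1.5e-13). For each of these genes the lowest double mutant library was above the highest 40Q library. The next were the infection response gene irg-5 (log2 1.87, standard error 0.0852), the C-type lectin clec-190 (1.69, 0.114), Y9C9A.16 (1.68, 0.124), dod-24 (1.64, 0.131), the lysosomal lipase gene lipl-1 (1.61, 0.153) and R102.6 (1.56, 0.144). R102.6 shares exons with R102.11 on the same strand, which was also called higher (log2 1.04), so their reads may be mixed.

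The largest decreases were found in an ion exchanger, secreted proteins, a superoxide dismutase and small peptides. The gene nhx-6, a sodium-proton exchanger (chromosome II, 1670829 to 1674401), had 0.978, 1.33 and 1.79 CPM in double mutants, against 11.6, 12.9 and 13.6 CPM in 40Q. The log2 fold change of nhx-6, -3.19 (standard error 0.114, adjusted p = 1.73e-13), was about as large as that of unc-1. The gene scl-6, of the secreted SCP family, lay at 0.726, 0.833 and 1.02 CPM in double mutants and 5.83, 6.95 and 7.66 CPM in 40Q (log2 fold change -2.98, standard error 0.124). The gene tag-293 had 3.01, 3.91 and 4.35 CPM in double mutants, against 26.5, 30.0 and 33.1 CPM in 40Q (-2.96, standard error 0.0862, adjusted p = 2.34e-14). In all of these the double mutants sat at a small part of the 40Q level in every library. The gene sod-3, a mitochondrial superoxide dismutase and a known target of the insulin pathway factor DAF-16, had 0.709, 1.06 and 1.21 CPM in double mutants, against 3.92, 4.33 and 4.73 CPM in 40Q (-2.10, standard error 0.134). Its exons overlap C08A9.6 on the opposite strand, whose log2 fold change was -0.00, and the strand setting of the counting was not given in the sources used here. It was the only call among the 9 tested genes for superoxide dismutases, catalases and metallothioneins. Among calls without overlap that averaged 1 or more on the log2 CPM scale, the rest of the 10 largest decreases were Y38H6C.23 (-2.70, standard error 0.162), nspc-13 (-2.03, 0.119), nspc-19 (-1.98, 0.129), T24C4.4 (-1.97, 0.130) and kreg-1 (-1.94, 0.170).

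The single mutants place these changes. The single mutant levels below were scaled over all 24 libraries. Their log2 fold changes come from 1 fit of these libraries, in which double mutants were also tested against each single mutant. In the text, levels of double mutants and 40Q remain those scaled over the 12 libraries. Figures with the single mutants use the scaling of 24 libraries throughout. In those tests 139 genes (0.950%) were called against nhr-1(vlt16) and 857 genes (5.86%) against unc-1(vlt10). The comparisons share the double mutant or the 40Q libraries, so values are given side by side. The genes tag-293, scl-6, sod-3 and kreg-1 were low wherever nhr-1 was mutated. In nhr-1(vlt16) their log2 fold changes against 40Q were -2.30, -2.77, -2.22 and -1.95, and in unc-1(vlt10) they were 0.18, -0.61, 0.42 and -0.20. For scl-6, sod-3 and kreg-1 the differences of double mutants from nhr-1(vlt16) were -0.21, 0.12 and 0.02 (standard errors 0.195, 0.173 and 0.180) and did not pass the test (adjusted p = 0.498, 0.693 and 0.962), whereas tag-293 was lower still in double mutants, by -0.66 (standard error 0.0863, adjusted p = 1.56e-06). The opposite pattern was that of nhx-6, at 1.40 CPM on average in double mutants and 15.3 CPM in nhr-1(vlt16), but 0.306 CPM in unc-1(vlt10). Double mutants were above unc-1(vlt10), by 2.19 on the log2 scale (standard error 0.210, adjusted p = 2.92e-10). The gene amt-1 was high in all the mutants, with log2 fold changes against 40Q of 1.98 in nhr-1(vlt16) and 1.75 in unc-1(vlt10). The difference of double mutants from nhr-1(vlt16) was 0.02 (adjusted p = 0.839), and that from unc-1(vlt10) was 0.26 (adjusted p = 0.00172).

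Several genes were higher in double mutants than in either single mutant. Among the genes named by rule, dod-24 was at 5.44, 6.54 and 7.84 CPM in double mutants, against 1.72, 1.82 and 2.68 CPM in 40Q. In nhr-1(vlt16) it averaged 2.12 ± 0.319 CPM and in unc-1(vlt10) 2.099 ± 0.492 CPM (SD, n = 6 each), and double mutants were higher by 1.62 than the first and by 1.64 than the second on the log2 scale (adjusted p = 2.14e-10 and 1.13e-11). Y49G5A.1 was higher in double mutants than in nhr-1(vlt16) by 1.04 (adjusted p = 3.39e-11) and than in unc-1(vlt10) by 2.93 (adjusted p = 2.88e-21). The same held for irg-5, by 0.61 and 1.39 (adjusted p = 1.54e-06 and 5.57e-15), and for lipl-1, by 0.74 and 1.97 (adjusted p = 7.97e-05 and 3.18e-13). The neighbours of dod-24 were chosen after their values were seen. In a stretch of 3 tested genes on chromosome IV (12935011 to 12941354), all 3 were called higher: dod-24, dod-21 and C32H11.9, which belong to a family with CUB-like domains and respond to infection or to DAF-16. The gene dod-21 had 59 to 101 reads in double mutants and 1 to 5 reads in 40Q, and C32H11.9 had 26 or more reads in each double mutant library and 1 to 5 reads in 40Q. Both genes passed the filter on counts through double mutant libraries alone, so they were tested only because they are high there. Their log2 fold changes were 4.13 (standard error 0.272) and 4.39 (standard error 0.516), and that of C32H11.9 was 5.06 without 40Q replicate 5. For C32H11.9, double mutant replicate 3 stood apart at 4.11 CPM, with the other double mutants at 0.930 to 1.56 CPM, and so did 40Q replicate 5 at 0.227 CPM. Nearby, F55G11.4 of the same family averaged 53.6 ± 4.82 CPM in double mutants, against 23.9 ± 4.58 CPM in 40Q (SD, n = 6 each; no overlap; log2 1.16, standard error 0.0938), and in the single mutants its log2 fold changes against 40Q were -0.14 and -0.22. Of the genes next to F55G11.4, dod-17 was called higher (1.06, but under 2-fold at 0.97 without double mutant replicate 2) and differed from the single mutants by only 0.02 and 0.11 (adjusted p = 0.925 and 0.387), and K10D11.5 was called lower (-1.01).

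Another such locus, also chosen after its values were seen, was lin-15, which holds 2 genes of an operon that repress vulval fates and germline genes in the soma. The gene lin-15B (chromosome X, 15726123 to 15732025) had 126.3, 132.2 and 149.2 CPM in double mutants, against 52.6, 59.6 and 65.0 CPM in 40Q (log2 1.18, standard error 0.0523, adjusted p = 4.43e-12). The gene lin-15A (15731968 to 15735365) had 50.4, 53.5 and 56.5 CPM in double mutants, against 19.9, 22.6 and 27.8 CPM in 40Q (log2 1.21, standard error 0.0608). Every double mutant library was above every 40Q library for both genes, whose annotated exons overlap slightly. In nhr-1(vlt16) the log2 fold changes against 40Q were 0.28 for lin-15B and 0.29 for lin-15A, and in unc-1(vlt10) 0.18 and 0.05. Double mutants were above nhr-1(vlt16) by 0.90 and 0.92 and above unc-1(vlt10) by 1.00 and 1.16 (largest of the 4 adjusted p 2.23e-14). The next gene on the chromosome, the hedgehog-related wrt-4 (15752257 to 15757269), was called higher too, at 0.727, 1.48 and 2.68 CPM in double mutants and 0.180, 0.689 and 1.25 CPM in 40Q, with overlapping libraries (log2 1.17, standard error 0.343, adjusted p = 0.0152). Its fold change fell under 2 without double mutant replicate 4 (log2 0.93) or 40Q replicate 3 (log2 0.97).

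**Figure D2:**
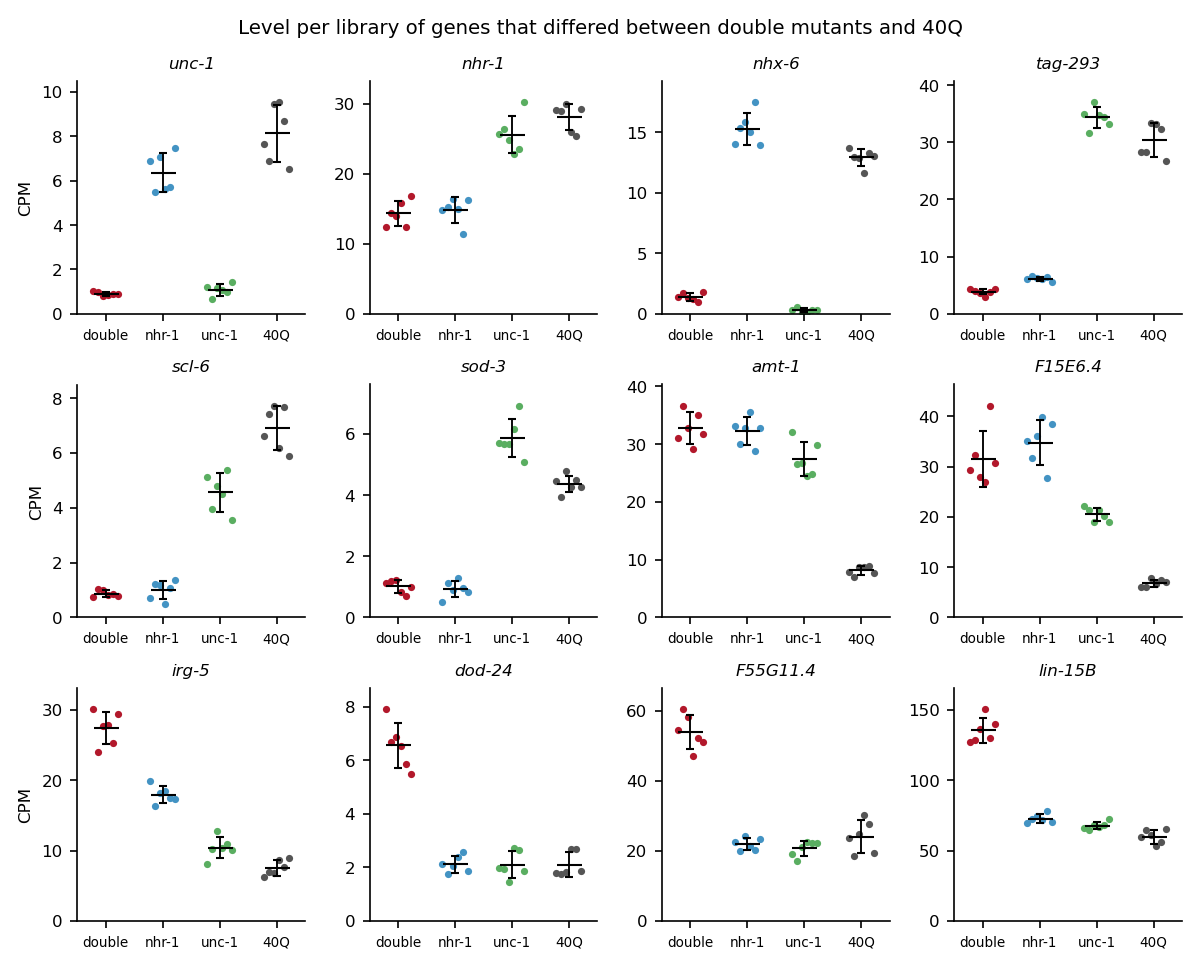
CPM per library (points) of 12 genes in double mutants, nhr-1(vlt16), unc-1(vlt10) and 40Q, left to right, with mean and SD over 6 libraries (black). The levels of tag-293, scl-6 and sod-3 were low in double mutants and nhr-1(vlt16), nhx-6 was low in double mutants and unc-1(vlt10), amt-1 was high in all the mutants, and dod-24, F55G11.4 and lin-15B were high in double mutants.

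Genes of the response to infection moved in both directions. Lysozymes and saposins attack bacterial walls and membranes, and C-type lectins are secreted or membrane proteins that often change with pathogens. Of 75 tested genes for lysozymes, saposins, antimicrobial peptides and infection response (of 111 in the table), 14 were higher and 21 lower at an adjusted p below 0.05, with 4 and 3 called and a median log2 fold change of -0.04, beside -0.00 over all genes tested. The calls in the higher direction were led by irg-5, with 23.9, 27.6 and 29.9 CPM in double mutants, against 6.16, 7.21 and 8.88 CPM in 40Q (adjusted p = 6.56e-12). The others named are irg-6, at 0.540, 0.811 and 1.39 CPM in double mutants, against 0.180, 0.309 and 0.517 CPM in 40Q (log2 1.44, standard error 0.281), and the caenacin peptide gene cnc-6, at 1.88, 2.56 and 3.25 CPM in double mutants, against 0.626, 1.09 and 1.32 CPM in 40Q (1.34, standard error 0.185). T24B8.5, a reporter gene of the p38 immune pathway chosen after its values were seen, was higher as well (log2 1.08, standard error 0.133, adjusted p = 7.83e-06). The lysozymes went the other way. Of 13 tested lys and ilys genes, 8 were lower, beside 15.3% of all genes tested, and none higher at an adjusted p below 0.05. The gene lys-3 fell to 0.475, 0.672 and 1.35 CPM in double mutants, against 1.15, 2.04 and 3.38 CPM in 40Q (log2 -1.50, standard error 0.272, with overlap). In unc-1(vlt10) lys-3 was instead higher than in 40Q (log2 1.37), and double mutants were below unc-1(vlt10) by -2.87 (adjusted p = 4.13e-12). Of 105 tested C-type lectin genes (of 264), 14 were higher (13.3%, beside 13.8% of all genes tested) and 23 lower (21.9%, beside 15.3%). Those called included clec-190, at 5.76, 6.19 and 7.56 CPM in double mutants, against 1.62, 2.01 and 2.40 CPM in 40Q, and clec-86, at 1.32, 1.46 and 1.74 CPM in double mutants, against 2.87, 5.26 and 7.23 CPM in 40Q (log2 -1.77, standard error 0.185). The exons of clec-86 overlap alh-10 on the opposite strand, whose log2 fold change was -0.26. At lower levels, clec-118 was called higher (log2 1.21) and clec-185 lower (log2 -1.33). The gene clec-118 passed the filter on counts through double mutant libraries alone, where it is high.

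Genes of fatty acid synthesis showed a single call and small decreases. Of 22 tested genes for synthesis, elongation and desaturation, 1 was higher and 10 lower at an adjusted p below 0.05 (45.5%, beside 15.3% of all genes tested), with a median log2 fold change of -0.14. The count of lower genes was 6 with the replicate block, 4 with library totals alone and 3 with limma on FPKM. The call was fat-7, a stearoyl-CoA desaturase (chromosome V, 7151353 to 7153146), with 7.89, 8.37 and 9.38 CPM in double mutants, against 19.7, 22.6 and 24.2 CPM in 40Q. It fell without overlap, by -1.40 on the log2 scale (standard error 0.0648, adjusted p = 7.05e-12). Its paralog fat-6, the more abundant desaturase, was at 298, 325.2 and 355 CPM in double mutants and 313, 361 and 388 CPM in 40Q (-0.15, adjusted p = 0.0332). The palmitoyl-CoA desaturase fat-5 was at 9.51, 12.4 and 14.2 CPM in double mutants, against 14.2, 16.6 and 18.5 CPM in 40Q (-0.42, standard error 0.0900, adjusted p = 0.00176). Per length, the deposited FPKM averages were 7.63 for fat-7, 284 for fat-6 and 11.2 for fat-5 in double mutants, against 19.6, 305 and 14.6 in 40Q. The desaturases of polyunsaturated fatty acids fat-2 and fat-3, chosen after their values were seen, were lower by small amounts (log2 -0.16 and -0.18), and fat-1 and fat-4 had log2 fold changes of -0.11 and 0.01 that did not pass the test.

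The elongases and the first enzymes of synthesis differed from 40Q by small amounts. The gene elo-6, for an elongase that makes branched-chain fatty acids, was at 204.6, 227.4 and 251.4 CPM in double mutants, against 171.1, 204.5 and 218.4 CPM in 40Q, the only member that was higher (log2 0.19, standard error 0.0535, adjusted p = 0.0109). Its neighbour elo-5, with the same role, was at 117.5, 132.7 and 139.5 CPM in double mutants and 110.4, 125.8 and 136.5 CPM in 40Q (0.05, adjusted p = 0.467). Of the elongases of longer and unsaturated chains, elo-1 was lower (-0.15, adjusted p = 0.0117), and elo-2 had a log2 fold change of -0.10 (adjusted p = 0.0937). The genes elo-3 and elo-9, chosen after their values were seen, were lower without overlap (-0.13 and -0.24, adjusted p = 0.0135 and 0.0233). The acetyl-CoA carboxylase gene pod-2 was lower by -0.17 (standard error 0.0540, adjusted p = 0.0224), and the fatty acid synthase gene fasn-1 had a log2 fold change of -0.10 (adjusted p = 0.0778).

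Several of these enzymes were higher in double mutants than in the unc-1 single mutant. Mean levels of elo-5, elo-6 and fat-5 were 130.4, 229.8 and 12.2 CPM in double mutants and 33.8, 43.6 and 3.99 CPM in unc-1(vlt10). Double mutants were higher than unc-1(vlt10) by 1.96 for elo-5, 2.41 for elo-6, 1.62 for fat-5 and 1.40 for elo-2 on the log2 scale (adjusted p = 1.83e-20, 1.05e-22, 3.89e-14 and 2.89e-18). Over the list, 14 of the 22 genes were higher in double mutants and 1 lower, set against unc-1(vlt10), and 1 was higher and 1 lower than in nhr-1(vlt16). Over all 14627 genes tested, 3363 were higher and 3072 lower than in unc-1(vlt10), and 1478 higher and 1335 lower than in nhr-1(vlt16). The gene fat-5 was lower than in nhr-1(vlt16), by -0.42 on the log2 scale (adjusted p = 0.00118). The gene fat-7 averaged 8.47 CPM in double mutants, beside 8.10 CPM in nhr-1(vlt16) animals and 7.64 CPM in those with unc-1(vlt10). The double mutant level differed from these by 0.08 (adjusted p = 0.550) and 0.16 (adjusted p = 0.107) on the log2 scale, and neither difference passed the test, so fat-7 was low in every mutant genotype.

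**Figure D3:**
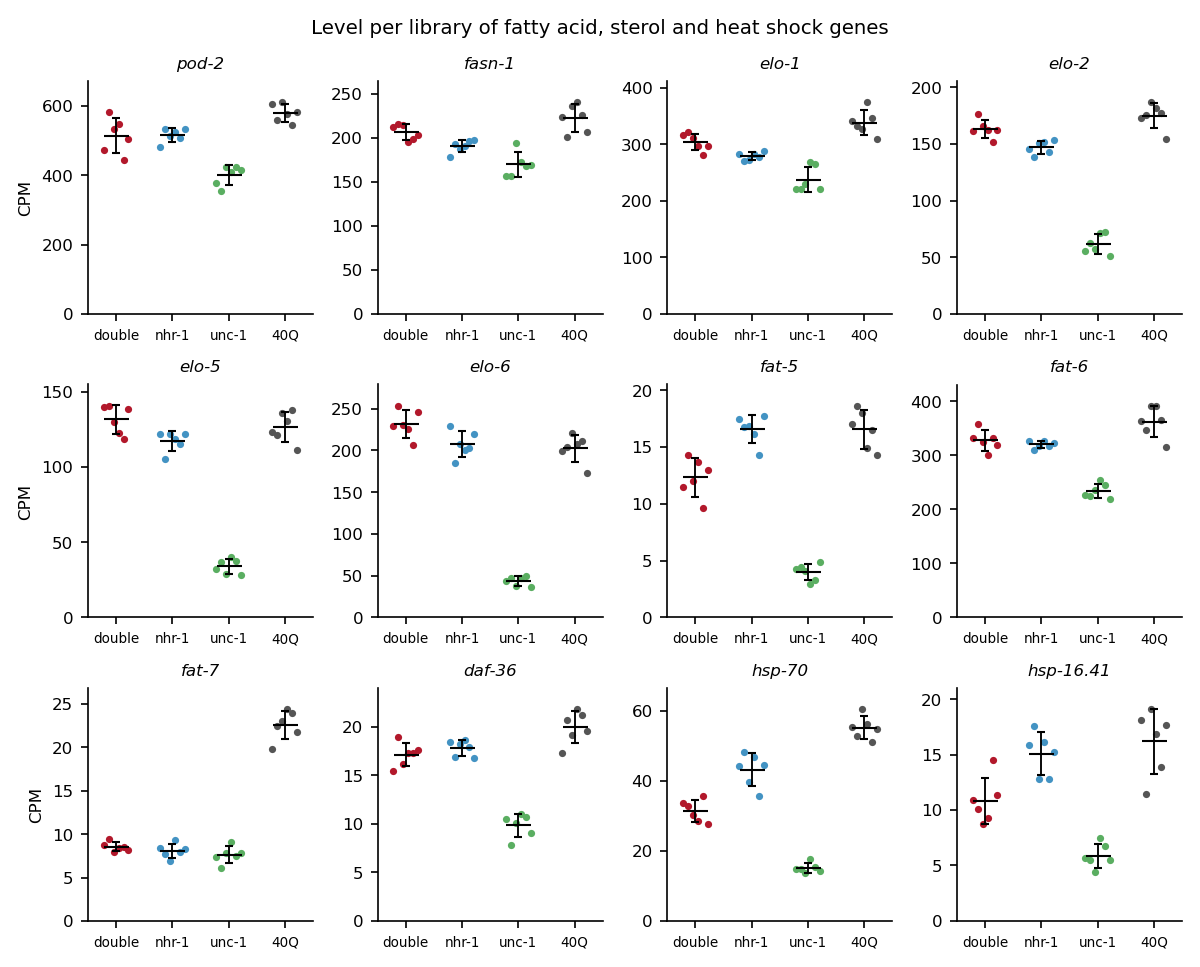
CPM per library (points) of 12 genes in double mutants, nhr-1(vlt16), unc-1(vlt10) and 40Q, left to right, with mean and SD over 6 libraries (black). For daf-36 and the elongases elo-2, elo-5 and elo-6 the double mutants sit near 40Q and well above unc-1(vlt10). The gene fat-7 is low in all 3 mutant genotypes. For fat-5, hsp-70 and hsp-16.41 the double mutant means lie between those of 40Q and unc-1(vlt10).

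Fat breakdown genes were more often lower than higher, by small amounts, and few passed 2-fold. Of 63 tested genes for fatty acid activation and beta-oxidation, 8 were higher and 22 lower (34.9%, beside 15.3% of all genes tested), with a median log2 fold change of -0.09. The call was ech-9, for an enoyl-CoA hydratase (3.23, 3.52 and 4.75 CPM in double mutants, against 0.887, 1.66 and 2.40 CPM in 40Q; log2 1.08, standard error 0.180), and it dropped under 2-fold without double mutant replicate 6 (log2 0.98) or 40Q replicate 2 (log2 0.95). Of 25 tested genes for lipases and lipid droplets, 3 were higher and 8 lower. The call among them was lipl-1, a lipase induced by fasting, at 3.92, 4.72 and 5.62 CPM in double mutants, against 1.11, 1.51 and 2.30 CPM in 40Q (adjusted p = 2.77e-07). Of 13 tested steroid pathway genes, 2 were higher and 3 lower, and none was called. The cholesterol oxygenase gene daf-36 was at 15.3, 17.2 and 18.8 CPM in double mutants, against 17.2, 20.0 and 21.7 CPM in 40Q (log2 -0.22, standard error 0.0646, adjusted p = 0.016). The gene daf-9, for the cytochrome P450 that makes dafachronic acid, was at 2.13, 2.68 and 3.90 CPM in double mutants, against 1.64, 1.90 and 2.34 CPM in 40Q (log2 0.55, standard error 0.149, adjusted p = 0.0102). Against unc-1(vlt10), daf-36 was higher in double mutants by 0.80 and daf-9 by 0.87 on the log2 scale (adjusted p = 5.46e-11 and 5.73e-05).

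Inducible heat shock genes in double mutants were lower or did not pass the test, and none was higher. These genes are switched on by the factor HSF-1 when proteins unfold in the cytosol, and their products hold or refold such proteins. Of 15 tested inducible heat shock genes, 8 were lower and none higher at an adjusted p below 0.05 (53.3% lower, beside 15.3% of all genes tested), with a median log2 fold change of -0.51 and no call at 2-fold, and 14 had a log2 fold change below 0. The chaperone gene hsp-70 (chromosome I) was at 27.3, 31.3 and 35.4 CPM in double mutants, against 50.6, 54.6 and 59.9 CPM in 40Q, with no overlap (log2 -0.81, standard error 0.0595, adjusted p = 8.11e-09). The small heat shock gene hsp-16.41 was at 8.62, 10.4 and 14.4 CPM in double mutants and 11.38, 17.1 and 18.9 CPM in 40Q (-0.58, standard error 0.123, adjusted p = 0.00174). Of the members chosen after their values were seen, hsp-16.2 had a log2 fold change of -0.81 and hsp-17 one of -0.42, each without overlap, and hsp-17 overlaps F52E1.14 on the opposite strand (log2 -0.31). The summed level of the list was 338, 362 and 372 CPM in double mutants, against 404.5, 427 and 454 CPM in 40Q. In unc-1(vlt10) hsp-70 was lower still, at 15.1 CPM on average, and double mutants were above it by 1.06 on the log2 scale (adjusted p = 1.66e-13) and below nhr-1(vlt16) by -0.46 (adjusted p = 1.07e-05). Genes of sarcomeres, where the transgene is expressed, were lower as well, as given below, and the part of muscle content in these values was not tested.

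The other branches of the protein folding response showed no call. In the endoplasmic reticulum, the log2 fold changes of hsp-4, ire-1 and atf-6 were -0.02, 0.05 and 0.04 (adjusted p = 0.740, 0.275 and 0.653), and 5 of 14 tested genes of this response were lower and 1 higher. The chaperone gene hsp-3, chosen after its values were seen, was lower without overlap (log2 -0.18, adjusted p = 0.000884). In mitochondria, the regulator atfs-1 had a log2 fold change of -0.07 (adjusted p = 0.146), whereas 3 of 8 tested genes were higher and none lower. One of these was the chaperone hsp-6, chosen after its values were seen, at 817, 858.5 and 906 CPM in double mutants and 667, 755 and 801 CPM in 40Q (log2 0.19, adjusted p = 0.00307). Of 49 constitutive chaperones and co-chaperones, 6 were higher and 13 lower, with a median of -0.03, but 10 were higher and 6 lower with library totals alone.

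Adaptors of ubiquitin ligases were shifted upwards. F-box proteins bring substrates to SCF ligases and BTB proteins with a MATH domain bring them to CUL-3 ligases, and both families have expanded strongly in C. elegans. Of 113 F-box B genes in the table, 99 were tested, of which 51 were higher and none lower at an adjusted p below 0.05 (51.5%, beside 13.8% of all genes tested), 5 were called, and the median log2 fold change was 0.49. Of the 99, 1 passed the filter on counts through double mutant libraries alone. At a mean of 1 CPM or more, 40 of 73 were higher and none lower, with a median of 0.45 and no call. Their summed level was 206, 226 and 251 CPM in double mutants, against 138, 170 and 194 CPM in 40Q, without overlap. The largest call was fbxb-6, at 0.694, 1.39 and 1.86 CPM in double mutants, against 0.289, 0.588 and 0.835 CPM in 40Q (log2 1.25, standard error 0.256). The others named are the pseudogene fbxb-32, the pseudogene fbxb-80 (1.20, 0.271) and fbxb-112. The calls of fbxb-32 (1.22, adjusted p = 0.0396) and fbxb-112 (1.07, adjusted p = 0.0123) did not hold without some single libraries. The adjusted p of fbxb-32 lay between 0.0547 and 0.0960 without double mutant replicate 4, 5 or 6 or without 40Q replicate 1, 2, 3 or 4, and the fold change of fbxb-112 was under 2 without double mutant replicate 1 (log2 0.95) or 5 (0.97) or 40Q replicate 3 (0.95) or 5 (0.98).

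Of 83 tested genes with MATH or BTB domains, 37 were higher (44.6%, beside 13.8% of all genes tested) and 5 lower (6.02%, beside 15.3%). Called were 8 higher and 1 lower (beside 1.13% and 0.711% of all genes tested), and the median was 0.25. The gene bath-13 (chromosome II) was at 3.29, 3.51 and 5.23 CPM in double mutants, against 0.611, 0.954 and 1.32 CPM in 40Q (log2 1.95, standard error 0.180, adjusted p = 1.82e-07). Its neighbour bath-18, a pseudogene, was also higher (1.44, standard error 0.275), as was math-38 (1.27, standard error 0.205), while bath-25 on chromosome I was lower (-1.77, standard error 0.324). Of 160 tested F-box A and C genes (of 277), 38 were higher (23.8%) and 14 lower (8.75%), with a median of 0.11. The most strongly expressed of the calls named here ran against this direction: fbxa-192 had 11.95, 13.1 and 14.3 CPM in double mutants, against 32.7, 33.2 and 34.2 CPM in 40Q (log2 -1.35, standard error 0.0524, adjusted p = 6.92e-13). At lower levels, fbxa-127 (log2 1.65, standard error 0.372) and fbxc-20 (1.22, 0.307) were called higher and fbxc-5 lower (-1.42, 0.431). The gene fbxa-127 passed the filter on counts through double mutant libraries alone, where it is high. The adjusted p of fbxc-5 was 0.0508 without 40Q replicate 2 and 0.0581 without 40Q replicate 6. Members of these families have close paralogs, and how reads that map to several copies were counted was not given in the sources used here.

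Genes first transcribed in embryos moved with the F-box B genes. Of 36 tested genes of early embryos, mostly of the sdz class, 11 were higher (30.6%, beside 13.8% of all genes tested) and none lower. Their median log2 fold change was 0.34, and the summed level was 132, 143 and 151.5 CPM in double mutants, against 98.7, 120 and 129 CPM in 40Q. Of 31 tested histone genes, 13 were higher (41.9%) and 3 lower (9.68%, beside 15.3% of all genes tested), with a median of 0.32. Of 30 oocyte and eggshell genes 2 were higher and 2 lower (6.67% each), with a median of 0.00. Of 72 sperm genes 3 were higher (4.17%) and 15 lower (20.8%), with a median of -0.06. The part of embryos held in the animals in the F-box and histone values was not tested. In the single mutants the median of the F-box B genes against 40Q was 0.61 in nhr-1(vlt16) and 0.61 in unc-1(vlt10), and that of the early embryo genes was 0.58 and 0.52. Of the 99 F-box B genes, 6 were lower and 1 higher in double mutants than in nhr-1(vlt16), and 11 lower and none higher than in unc-1(vlt10). Over all 14627 genes tested, 1335 were lower and 1478 higher than in nhr-1(vlt16), and 3072 lower and 3363 higher than in unc-1(vlt10). The core of the machinery was close to 40Q, with 6 higher and 3 lower of 25 SCF core genes and 8 lower and none higher of 33 proteasome subunits, these with a median of -0.06. With library totals alone 1 proteasome gene was lower and 1 higher.

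**Figure D4:**
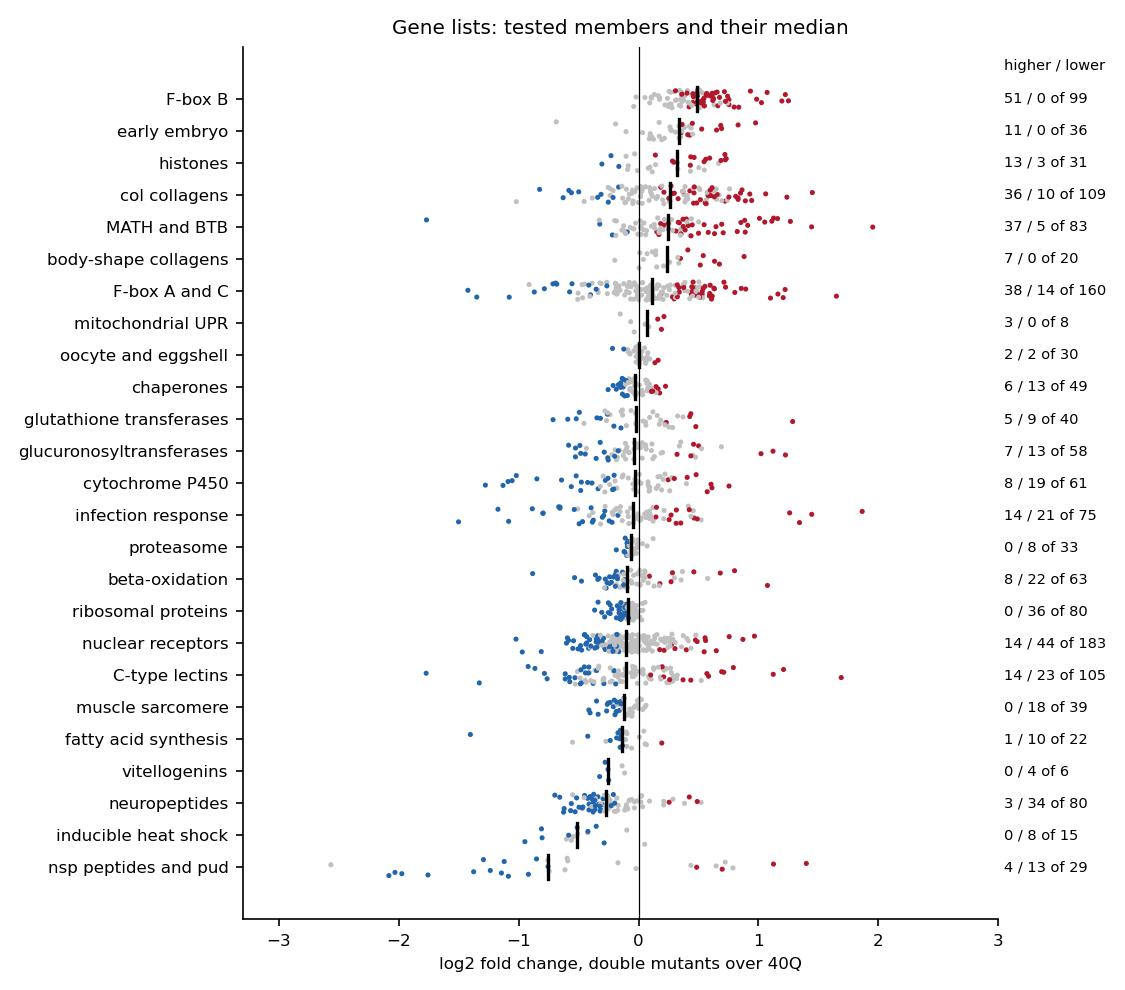
Each point is a tested member of a gene list, placed by its log2 fold change, double mutants over 40Q; red and blue points had an adjusted p below 0.05, grey ones did not, black bars are medians, and the numbers at the right give higher and lower members of those tested. F-box B genes sit almost wholly above 0 and inducible heat shock genes and neuropeptides mostly below it.

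Detoxification genes showed scattered calls. Of 61 tested cytochrome P450 genes, 8 were higher (13.1%, beside 13.8% of all genes tested) and 19 lower (31.1%, beside 15.3%). The 5 calls were all lower, a direction in which 0.711% of all genes tested were called. The most abundant was cyp-13A5, at 12.7 ± 2.96 CPM in double mutants, with libraries from 8.22 to 15.7 CPM, against 30.8 ± 5.06 CPM and 22.8 to 36.3 CPM in 40Q (SD, n = 6 each; log2 -1.28, standard error 0.132, adjusted p = 8.48e-07). It was higher than 40Q in unc-1(vlt10) (log2 0.96), and double mutants lay below unc-1(vlt10) by -2.24 (adjusted p = 9.26e-17). Its neighbour cyp-13A4 was lower too (-1.13, standard error 0.239), as were cyp-34A7 (-1.09), which was just under 2-fold without double mutant replicate 1 (adjusted p = 0.000689), and cyp-34A10 (-1.05), which was under 2-fold without double mutant replicate 4 (-0.92) or 40Q replicate 3 (-0.98) or 4 (-0.97). Glucuronosyltransferases attach sugars to small molecules for excretion. Of 58 tested, 7 were higher (12.1%) and 13 lower (22.4%), and all 3 calls were higher, beside 1.13% of all genes tested. These calls were ugt-30, at 6.31, 6.65 and 7.55 CPM in double mutants, against 2.21, 3.11 and 3.34 CPM in 40Q (log2 1.22, standard error 0.105), ugt-63 (1.12, standard error 0.151) and ugt-18. The log2 fold change of ugt-18 was 1.02, and 0.99, 0.99 and 0.95 without double mutant replicate 2, double mutant replicate 5 or 40Q replicate 5. The ugt genes differed between the single mutants, since against 40Q ugt-63 was lower in unc-1(vlt10) (log2 -2.58) and higher in nhr-1(vlt16) (0.59), while ugt-18 was higher in unc-1(vlt10) (2.41) and had -0.11 in nhr-1(vlt16) (adjusted p = 0.633). Among 40 glutathione transferases, 5 were higher (12.5%) and 9 lower (22.5%). The call was gst-15, at 9.43, 10.9 and 12.9 CPM in double mutants, against 3.52, 4.62 and 5.32 CPM in 40Q (log2 1.28, standard error 0.0999).

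Collagen genes of the cuticle were more often higher than lower, with a few strong members. Of 109 tested genes of the col class (of 159), 36 were higher (33.0%, beside 13.8% of all genes tested) and 10 lower, with a median of 0.26. Their summed level overlapped, at 34280, 38290 and 44000 CPM in double mutants and 34840, 37910 and 42110 CPM in 40Q. Of 20 furrow and body-shape collagens 7 were higher and none lower, with a median of 0.23. The gene col-95 (chromosome III) was at 592, 637.5 and 736 CPM in double mutants, against 258, 269 and 304 CPM in 40Q (log2 1.237, standard error 0.0536, adjusted p = 3.57e-12). It was high in the single mutants too, with log2 fold changes of col-95 against 40Q of 1.23 in nhr-1(vlt16) and 1.17 in unc-1(vlt10). Double mutants differed from these by 0.01 and 0.07 (standard error 0.0505 each), which did not pass the test (adjusted p = 0.923 and 0.270). The other calls were col-137 (1.45, standard error 0.318) and col-121 (1.06), both with overlapping libraries, and col-121 was under 2-fold without 40Q replicate 2 (0.95) or 5 (0.96). The exons of col-121, with 25 to 37 reads in double mutants, overlap daf-15 on the opposite strand, which averaged 5330 reads there (log2 fold change 0.02). Of the 109 genes, 47 were higher and 2 lower in double mutants than in nhr-1(vlt16), and 83 were higher and 3 lower when set against unc-1(vlt10). Over all 14627 genes tested, 1478 were higher and 1335 lower than in nhr-1(vlt16), and 3363 higher and 3072 lower than in unc-1(vlt10). In these single mutants the median of the class against 40Q was -0.24 and -0.52.

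Small peptides encoded on chromosome X were among the genes that fell most often. All 17 tested nspc genes, which encode nematode-specific peptides, had log2 fold changes below 0, from -2.08 to -0.59 with a median of -1.12. Of them 10 were called lower, beside 0.711% of all genes tested. Their summed level was 100.3, 107 and 133 CPM in double mutants, against 198, 247 and 289.7 CPM in 40Q. The gene nspc-18 had 3.69, 3.90 and 4.46 CPM in double mutants, against 10.6, 14.1 and 15.2 CPM in 40Q (log2 -1.76, standard error 0.0976), and nspc-16 had 0.544, 0.815 and 1.17 CPM in double mutants, against 3.24, 3.42 and 4.10 CPM in 40Q (-2.08, standard error 0.151). In unc-1(vlt10) the log2 fold changes of nspc-13 and nspc-16 against 40Q were -1.83 and -2.02, and in nhr-1(vlt16) they were -0.25 and -0.44. For nspc-13 and nspc-16, double mutants differed from nhr-1(vlt16) by -1.78 and -1.64 (adjusted p = 1.05e-12 and 2.21e-08), and from unc-1(vlt10) by -0.20 and -0.07 (adjusted p = 0.235 and 0.817). For nspc-18 and nspc-19 the log2 fold changes against 40Q were instead -1.25 and -1.35 in nhr-1(vlt16) and -1.03 and -0.90 in unc-1(vlt10), and double mutants lay below unc-1(vlt10) by -0.73 and -1.08 (adjusted p = 5.02e-06 and 3.53e-08). For both genes double mutants also lay below nhr-1(vlt16), by -0.50 and -0.62 (adjusted p = 0.00302 and 0.00146). Beside nspc-9, nspc-10, nspc-13 and nspc-14 on chromosome X lay zig-2, a secreted immunoglobulin-domain gene chosen after its values were seen, with 0.371, 0.531 and 0.991 CPM in double mutants, against 3.497, 4.44 and 5.59 CPM in 40Q (log2 -2.98, standard error 0.200). The nspc genes are near-identical copies, so reads could be split among them. The genes Y38H6C.19 and Y38H6C.21, chosen after their values were seen, lie beside Y38H6C.23 on chromosome V and fell with it (log2 -3.40 and -2.81). Of these, Y38H6C.19 passed the filter on counts through 40Q libraries alone.

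Neuropeptide and muscle genes were more often lower than higher, by small amounts. Of 80 tested flp and nlp genes, 34 were lower (42.5%, beside 15.3% of all genes tested) and 3 higher, with a median of -0.27, and all 30 tested flp genes had log2 fold changes below 0, of which 17 passed the test. Of 39 tested genes of sarcomeres and muscle attachment, 18 were lower (46.2%) and none higher, with a median of -0.12, and 11 were lower with limma on FPKM. The myosin gene unc-54, chosen after its values were seen, was at 1740, 1948 and 2232 CPM in double mutants, against 2292, 2465 and 2704 CPM in 40Q (log2 -0.35, standard error 0.0529, adjusted p = 7.85e-05). Reads from the unc-54 parts of the transgene could be counted on it, and this was not tested. The pharynx myosins myo-1 and myo-2 were lower too (log2 -0.40 and -0.41), whereas myo-3 of body wall muscle had 0.03 (adjusted p = 0.618). Neuron markers were lower in part: unc-119 passed the test (-0.17, adjusted p = 0.0473), while rab-3, snt-1, ric-19 and unc-104 had log2 fold changes between -0.29 and -0.11 that did not.

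Vitellogenins, the yolk proteins made in the intestine, were lower for 4 of 6 genes, with a median of -0.25 and a summed level of 34280, 40220 and 45480 CPM in double mutants, against 45950, 46800 and 50800 CPM in 40Q. Against unc-1(vlt10), 4 of the 6 were higher in double mutants and none lower, beside 3363 higher and 3072 lower of all 14627 genes tested. Ribosomal protein genes were lower for 36 of 80 and higher for none, with a median of -0.09 (20 lower with library totals alone), and methionine cycle genes were lower for 9 of 18 and higher for 2. Of 183 tested nuclear hormone receptor genes (of 285), 14 were higher and 44 lower. The call was nhr-156, at 4.62, 5.63 and 6.65 CPM in double mutants, against 10.1, 11.41 and 12.1 CPM in 40Q (log2 -1.02, standard error 0.0883), under 2-fold without double mutant replicate 3 (-0.99) or 4 (-0.98). Other calls in the lists were grd-13, a hedgehog-related gene (-1.08, standard error 0.126), the glutamine-rich pqn-98 (-1.99, standard error 0.269) and the insulin-like ins-10, whose log2 fold change of 1.07 was 0.97 to 0.99 without double mutant replicate 1 or 6 or 40Q replicate 1, 2 or 4. The exons of ins-10, with 10 to 18 reads in double mutants, overlap vps-39 on the opposite strand, which averaged 4820 reads there (log2 fold change 0.01). The filter on counts was passed by ins-10 through double mutant libraries alone and by pqn-98 through 40Q libraries alone, in each case where the gene is high. The O-acyltransferase gene oac-14, chosen after its values were seen, fell at a high level, to a mean of 42.9 CPM in double mutants, with libraries from 31.1 to 50.1 CPM, against a mean of 122.4 CPM and 87.2 to 151.4 CPM in 40Q (-1.51, standard error 0.120). The flavin monooxygenase gene fmo-2, chosen in the same way, was higher, at 78.3, 94.8 and 107.5 CPM in double mutants, against 43.9, 45.8 and 51.2 CPM in 40Q (1.01, standard error 0.0660). It was under 2-fold without double mutant replicate 1, 2 or 5 (0.96, 0.99 and 0.98) or, just under it, 40Q replicate 2.

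**Figure D5:**
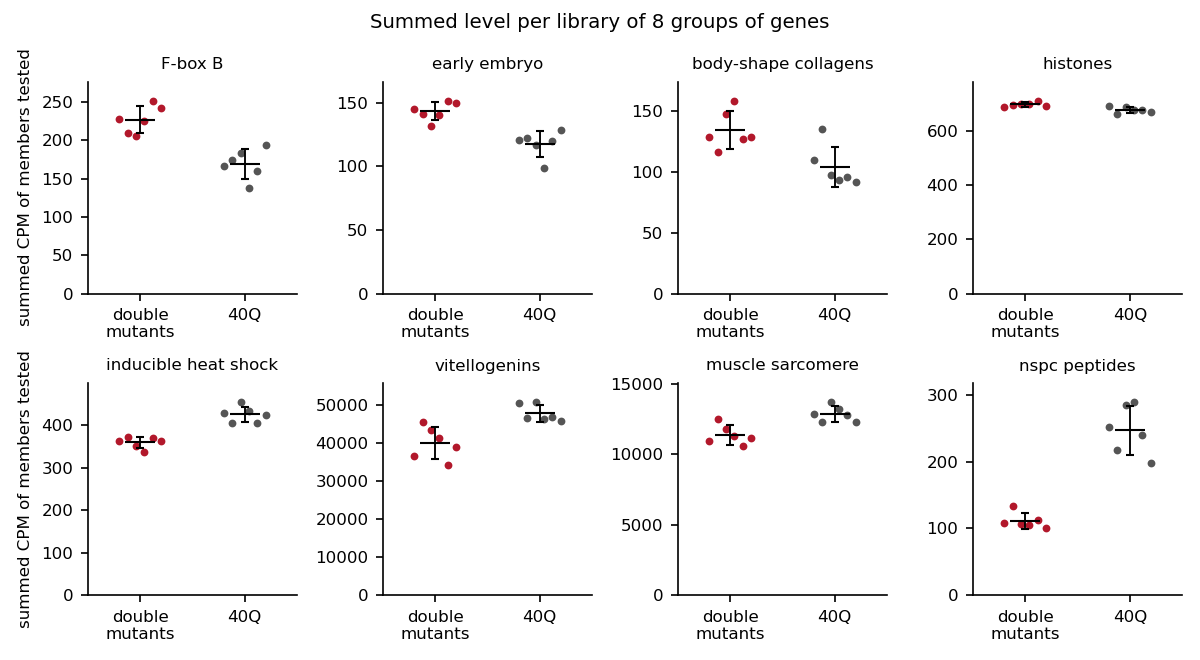
Summed CPM of the tested members of 8 groups of genes in each library (points), double mutants left and 40Q right, with mean and SD over 6 libraries (black). F-box B and early embryo genes had higher sums in every double mutant library, and inducible heat shock genes, vitellogenins and nspc peptides lower ones.

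The calls were spread over all chromosomes. Among genes tested, 0.675% were called on chromosome I, 1.94% on II, 2.33% on IV, 2.80% on V and 2.01% on X, with 25 of 2280 on III and 1 of 14 on the mitochondrial genome. Within 1 Mb of unc-1, 4 of 205 other genes were called (1.95%), and within 1 Mb of nhr-1, 4 of 120 (3.33%), beside 1.85% overall. These are counts without a test. Higher calls were most frequent on chromosomes II, IV and V, with 39, 41 and 41, and lower ones on V, with 38.

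The gene F56A4.3 (chromosome V, 2453414 to 2456147), chosen after its values were seen, had no read in any of the 6 double mutant libraries, against 106, 129, 177, 145, 151 and 113 reads in the 6 libraries of 40Q. With a floor of 3 counts over the group, or 0.0179 CPM, it was at least 352-fold lower in double mutants. It also had 0 reads in every nhr-1(vlt16) library and 203 to 280 reads in those of unc-1(vlt10). F56A4.3 passed the filter on counts through 40Q libraries alone.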

How the data were processed

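RNA of 24 libraries was sequenced as poly(A) libraries by Novogene. The authors aligned reads to WBcel235 with HISAT2 2.0.5, counted reads per gene with HTSeq 0.6.1 and compared genotypes with DESeq2 1.24.0 (versions from the submitters' processing notes). They deposited a table of raw counts without normalization and a table of FPKM values, which are scaled by gene length and depth. The deposited tables of the authors' own fold changes and p-values were not used. Strand setting and treatment of multiply mapped reads were not given in the sources used here.

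Libraries were grouped by their labels. Counts of the 12 libraries were fitted with edgeR 4.0.16 in R 4.3.3 (TMM, quasi-likelihood F-test, genotype as the only term), over genes with 10 or more counts in at least 6 libraries, with Benjamini-Hochberg adjustment over the 14627 genes tested. A gene was called at an adjusted p below 0.05 and a fold change above 2. The fit of 24 libraries used the same genes. Alternatives were DESeq2 1.42.0, other scalings and filters, thinned counts, limma 3.58.1 on log2(FPKM + 0.1) and log2(FPKM + 1), a replicate block and leaving out each library. Same-numbered libraries of the genotypes did not deviate together (correlations -0.152 to 0.0569). Checked on simulated counts for this comparison, 100% of 100 genes changed 4-fold and 49% of 100 changed 2-fold were called, with 2 of 14427 unchanged genes.

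The members and lists were chosen with earlier results of these data known, and lists are described by counts and medians with no test. Named are unc-1, nhr-1, the genes that the study names for these libraries and its stress genes, the 10 higher and 10 lower genes of largest fold change among calls averaging 1 or more on the log2 CPM scale and without overlap, and up to 4 calls of largest fold change in each list. The text marks other named genes as picked once their values were known. Positions are those of Ensembl release 115 (WBcel235). Figures were drawn with matplotlib. P-values weigh the difference between genotypes against the spread between these libraries. Each genotype was a single strain, so they do not cover the spread between strains.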

Additional observations from a re-analysis of the deposited data

Results flagged for a closer look

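In 9 of 222 groups of 6 libraries examined for the named genes and the library totals, 1 library lay far from the rest (Dixon's test on log2 CPM), and chance flags about 1 in 20 groups. Y49G5A.1 had 15.7 CPM in double mutant replicate 2, against 13.1 to 13.7 CPM in the other double mutants, and dod-17 had 9.98 CPM in the same library (others 6.22 to 7.34). In double mutant replicate 6, ech-9 had 4.75 CPM (others 3.23 to 3.66) and bath-13 had 5.23 CPM (others 3.29 to 3.89). The small heat shock gene hsp-12.3 had 1.72 CPM in double mutant replicate 5 (others 0.826 to 0.991). C32H11.9 had 4.11 CPM in double mutant replicate 3 (others 0.930 to 1.56) and 0.227 CPM in 40Q replicate 5 (others 0.0437 to 0.0522). Among 40Q libraries, gst-15 had 3.52 CPM in replicate 4 (others 4.58 to 5.32), and fbxa-127 had 0.00 CPM in replicate 3 (others 0.0940 to 0.408). Fold changes fell under 2 for ech-9 without double mutant replicate 6 (log2 0.98) and for dod-17 without double mutant replicate 2 (log2 0.97). Without 40Q replicate 5 the log2 fold change of C32H11.9 was 5.06, against 4.39 with all libraries.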

How the results depend on the processing

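Every called gene that an alternative tested kept its direction there. The count of called genes was 457 without a filter on low counts (304 higher), 164 at 1 CPM or more in 6 libraries (87 higher), 94 with limma on log2(FPKM + 1) (47 higher, 47 lower) and 4261 without the fold threshold. It lay between 231 and 276 with the other tools, scalings and filters. The fit with the replicate block called 269 genes, of which 262 were also called without it, and 3344 had an adjusted p below 0.05. Replicate numbers did not pair the libraries. Leaving out 1 library gave 236 to 304 called genes, 141 to 196 higher, 95 to 121 lower and 3529 to 4373 with an adjusted p below 0.05. Of 110 named genes, 5 did not pass the test with library totals alone and 8 with each limma fit, among them fat-6, and 3 with the replicate block. Counts within lists of small shifts, such as fatty acid synthesis, proteasome, chaperone and ribosomal genes, moved by over 1.5 times with library totals alone, which moved the median of all genes to 0.0445. Promoter sequences were not analysed here, and the planned description of promoter letters was not run.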
